A study of Homo sapiens with 18 samples.

Results

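Aminoacyl-tRNA synthetases, the enzymes that load each amino acid onto its tRNA, were followed through uveal melanoma cells treated with inhibitors of the histone methyltransferase EHMT2 (G9a). The set was fixed by symbol and held 36 genes of the 26475 in the count table, 20 of them for cytosolic enzymes and 16 for mitochondrial enzymes, and all 36 were above the filter on low counts in every fit. RNA-seq had been done in 6 groups of 3 libraries on Mel92.1 and MP41, both established lines from uveal melanoma, the melanocyte tumor of the eye. Each line was treated with DMSO, the vehicle, or for 48 h with 1 μM UNC0642 or 1 μM A366, and both lines were grown in RPMI medium with fetal bovine serum. The labels give both lines the same share of serum, whereas the study's general culture methods give MP41 a larger share than Mel92.1, so serum and line cannot be told apart wherever the lines are compared if the latter held here. UNC0642 and A366 are small-molecule inhibitors of EHMT2 that also act on its relative EHMT1, so no group isolates 1 of these enzymes, and each line stands for a single tumor. The series text calls the 3 libraries of a group biological replicates without saying what was separate, so p-values measure the spread between these libraries.

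Total counts ran from 23601156 to 62941462, and the share on ribosomal RNA genes from 3.31% to 32.8%. Mel92.1 UNC0642 replicate 1 had both the lowest total and the highest share. Of 8 melanocyte markers, PMEL was at 4402 CPM (counts scaled to library size by TMM factors) or more in every library, and MLANA, TYR, TYRP1, MITF and SOX10 were at 249 or more, but DCT and S100B were nearly absent from Mel92.1 with DMSO (means of 1.94 and 0.170 CPM, against 329 and 59.2 in MP41). Of 13 markers of other cell types, 11 did not exceed 2.88 CPM in any library (VWF the highest), KRT5 and CD3E being at most at 0.0208 and 0.0431. The exceptions were COL1A1, a fibroblast marker, at 7.25 to 22.2 CPM, and CD68, a macrophage marker, at 25.9 to 182 CPM with means of 165 in MP41 and 31.0 in Mel92.1 with DMSO.

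The 4 libraries labelled A366 replicates 2 and 3 of each line went against their labels. Of genes found in only 1 line with DMSO (at least 20 CPM in 1 line and at most 0.05 CPM in the other), 27 marked Mel92.1 and 33 marked MP41. The 2 libraries labelled MP41 reached 109% and 96.5% of the Mel92.1 level of the Mel92.1 genes and at most 0.0677% of the MP41 level of the MP41 genes. The 2 labelled Mel92.1 reached 110% and 112% of the MP41 level of the MP41 genes and at most 0.0384% for the Mel92.1 genes. The study's own listing of its replicates has these 4 libraries exchanged between the lines, and they were placed as in that listing. A366 results are given with that placement, as labelled, and without the 4 libraries, where A366 has 1 library per line.

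Every amino acid has a synthetase, and cells keep mostly separate enzymes for the cytosol and for the mitochondrion, all encoded in the nucleus. Genes without a mitochondrial counterpart in this set, GARS and KARS among them, are counted as cytosolic only. Several cytosolic enzymes are held together in the multisynthetase complex around AIMP1, AIMP2 and EEF1E1, whereas others act free of it. When amino acids run short or the endoplasmic reticulum is stressed, phosphorylation of eIF2α favors translation of the transcription factor ATF4, and many cytosolic synthetase genes are known targets of ATF4, unlike most mitochondrial ones. ATF4 binds with C/EBP partners to an element with the core TGATGNAA.

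Because ATF4 binds to this element, the promoters of the members were searched for that core on both strands. The search ran from 250 bases before to 50 bases after each RefSeq start site (GRCh38.p14). Binding of ATF4 to the matches was not tested. Entries were found for 30 of the 36 genes, and DARS, LARS, VARS, YARS, AARS2 and VARS2 had none. The core was present for 7 of 16 cytosolic genes (43.8%) and 1 of 14 mitochondrial genes (7.14%), against 4.46% of all 27305 genes and 3.60% of 15843 protein-coding genes with an entry. The 8 stretches are shown 5′ to 3′ on the strand of the gene, with the match in capitals. They lie at chr16:70289675-70289753 (AARS, minus strand), chr11:3057407-3057485 (CARS, minus), chr7:30594785-30594863 (GARS, plus), chr9:92293692-92293770 (IARS, minus), chr12:57488004-57488082 (MARS, plus), chr18:57621807-57621882 (NARS, minus), chr5:33440907-33440985 (TARS, plus) and chr12:32756076-32756147 (YARS2, minus).
AARS: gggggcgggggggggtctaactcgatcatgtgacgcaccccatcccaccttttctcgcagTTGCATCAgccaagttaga
CARS: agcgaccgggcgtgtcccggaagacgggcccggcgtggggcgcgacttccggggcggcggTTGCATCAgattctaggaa
GARS: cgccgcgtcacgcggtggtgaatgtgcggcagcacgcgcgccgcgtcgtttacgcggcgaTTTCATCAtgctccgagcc
IARS: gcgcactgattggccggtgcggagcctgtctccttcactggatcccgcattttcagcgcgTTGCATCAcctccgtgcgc
MARS: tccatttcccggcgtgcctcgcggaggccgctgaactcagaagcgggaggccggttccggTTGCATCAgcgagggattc
NARS: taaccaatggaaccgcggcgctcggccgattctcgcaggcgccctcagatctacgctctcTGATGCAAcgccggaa
TARS: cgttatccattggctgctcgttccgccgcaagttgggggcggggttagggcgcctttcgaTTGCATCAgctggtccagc
YARS2: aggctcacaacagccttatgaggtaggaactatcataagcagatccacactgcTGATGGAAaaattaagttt

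In AARS, CARS, IARS, MARS and TARS the match reads TTGCATCA, which is the core on the other strand with a C at its free position, and GARS reads TTTCATCA. NARS has the same core as the first 5 on its own strand, TGATGCAA, while YARS2 has TGATGGAA. The match began within 14 bases of the start site for CARS, IARS, MARS, NARS and TARS, 33 bases before it for GARS, and 187 and 197 bases before it for AARS and YARS2. CARS, GARS and TARS have 2 annotated start sites, and the match was at 1 of them.

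Levels were compared first without inhibitor, per kilobase of the longest transcript. In MP41 with DMSO, cytosolic synthetases ran from 14.7 (CARS) to 113 (GARS) CPM per kb with a median of 64.2, and mitochondrial ones from 2.11 (PARS2) to 128 (IARS2) with a median of 9.38. In Mel92.1 the cytosolic range was 17.2 (FARSB) to 82.8 (QARS) with a median of 51.7, and the mitochondrial range 3.81 (WARS2) to 70.2 (NARS2) with a median of 11.4. Mitochondrial enzymes were therefore mostly the lower class, but the ranges overlapped. In both lines the highest mitochondrial genes were IARS2 and NARS2, for isoleucine and asparagine, and HARS2 also lay above CARS, the lowest or among the lowest of the cytosolic genes. CARS2, AARS2 and SARS2 in Mel92.1, and VARS2, RARS2 and TARS2 in MP41, lay above at least 1 cytosolic gene too. At the top of the order in MP41, IARS2 (128 ± 5.39 CPM per kb, SD, n = 3) lay above GARS (113 ± 0.705), whereas GARS and WARS (110 ± 4.50) did not differ beyond their spread. At the top in Mel92.1, QARS (82.8 ± 3.46), GARS (82.1 ± 1.08) and VARS (80.0 ± 1.31) did not differ beyond their spread, and at the bottom neither did PARS2 (3.89 ± 0.393) and WARS2 (3.81 ± 0.278).

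**Figure D1:**
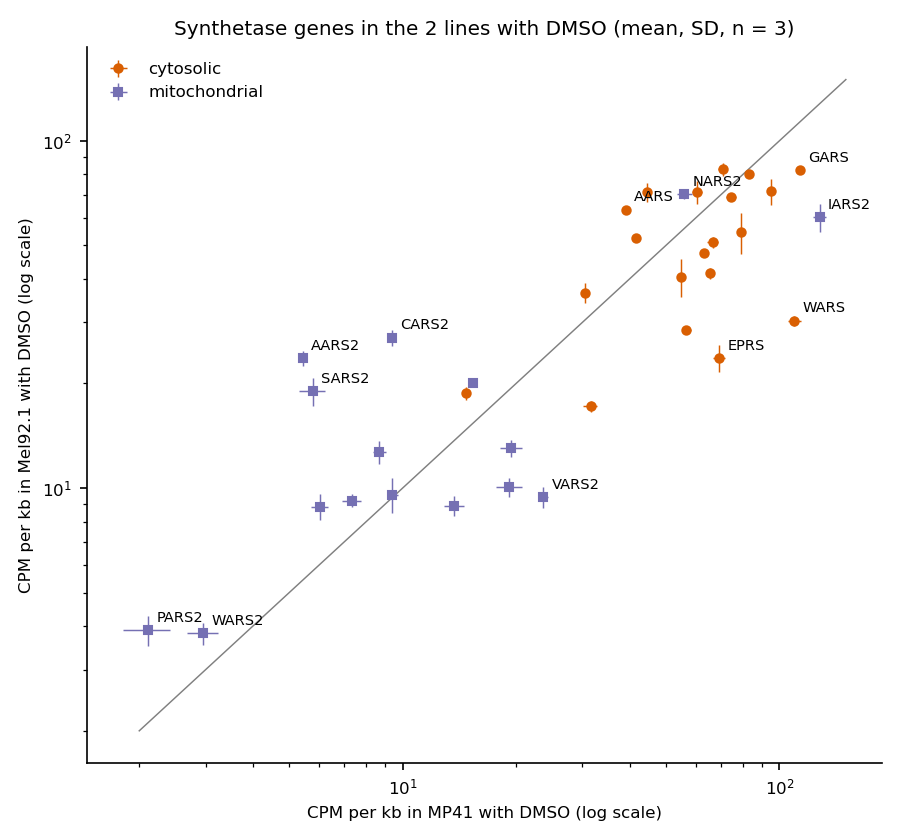
Levels of the 36 synthetase genes with DMSO in MP41 (x axis) and Mel92.1 (y axis), both in CPM per kb of the longest transcript on log scales, as means with SD bars over 3 libraries per line and a line of equal level. WARS, EPRS, IARS2 and VARS2 lie below the line (lower in Mel92.1), and AARS2, CARS2 and SARS2 above it.

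The lines differed widely at baseline, where serum may also have differed, as said above. Between Mel92.1 and MP41 with DMSO, 32 of the 36 members passed an adjusted p of 0.05 by edgeR (quasi-likelihood test, p-values adjusted by Benjamini-Hochberg over 15799 genes), where 69.4% of all genes did. Among cytosolic members 7 were higher in Mel92.1 and 11 lower, and among mitochondrial members 9 were higher and 5 lower. With each library corrected for GC content and transcript length, 3 cytosolic members were higher and 12 lower, and 10 mitochondrial members higher and 5 lower, where 70% of all genes were called. WARS, the tryptophanyl-tRNA synthetase that is also induced by interferon, was lowest in Mel92.1 relative to MP41. Its CPM in the 3 Mel92.1 DMSO libraries was 91.4, 92.6 and 97.2, against 346, 323 and 347 in MP41, a log2 difference of -1.85 (SE 0.06, adjusted p = 2.33e-14). EPRS, the fused glutamyl- and prolyl-tRNA synthetase, was at 131, 113 and 112 CPM in Mel92.1 and 352, 333 and 356 in MP41 (log2 difference -1.55, SE 0.09). AARS2, for mitochondrial alanine, went the other way, with 96.3, 87.3 and 90.3 CPM in Mel92.1 and 20.5, 20.9 and 21.4 in MP41 (log2 difference 2.13, SE 0.07). None of these 3 genes had overlapping groups. VARS2 was lower in Mel92.1 (log2 difference -1.33, SE 0.12), and SARS2 and CARS2 were higher (1.72, SE 0.12, and 1.53, SE 0.08), but 71.9% of the 50-base stretches of SARS2 transcripts also occur in the overlapping gene AC011455.2, and 22.0% of VARS2 exon bases overlap GTF2H4 on the same strand. Values of SARS2 and VARS2 are therefore uncertain.

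In Mel92.1 neither inhibitor moved a member past the threshold. With UNC0642, 0 of 36 members were called by edgeR, where 0.688% of the 14528 genes tested were, and 4 members had an unadjusted p under 0.05. DESeq2 and limma voom with quality weights each called 2, NARS2 and AARS2, where they called 2.64% and 2.84% of all genes. With A366, 0 of 36 were called, against 0.213% of all genes, and 0 had an unadjusted p under 0.05. DESeq2 also called 0 there, with 1.18% of all genes called, while limma voom called 9, a share near the 21.2% of all genes that it called, of which EPRS and EARS2 were higher and CARS, FARSA, MARS, QARS, SARS, YARS and MARS2 lower, none by more than 0.20 on the log2 scale. The groups did not overlap for 6 of 36 members with UNC0642 and for 7 with A366, 16.7% and 19.4% of the members, close to the 15.4% and 15.7% of all genes. Between A366 and UNC0642, at the same dose and time, 0 of 36 members were called, where 0.165% of genes were.

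The largest rise with UNC0642 in Mel92.1 was that of NARS2. Its CPM was 182, 176 and 172 with DMSO and 189, 228 and 240 with UNC0642, with no overlap (log2 fold change 0.31, SE 0.09, adjusted p = 0.236). Without UNC0642 replicate 1, the library rich in ribosomal RNA, it was 0.40 with an adjusted p of 0.0141. NARS2 was then the 1 member called, but how many of all genes that fit called is not given here. The lowest NARS2 levels were with A366, at 165, 165 and 159 CPM, all below DMSO (log2 fold change -0.12, SE 0.09, adjusted p = 1.000). AARS2 was at 107, 104 and 107 CPM with UNC0642, all above its DMSO values (log2 fold change 0.21, SE 0.07, adjusted p = 0.320). With each library corrected for GC content and transcript length it was called, at 0.31 (adjusted p = 0.0330), the 1 member called in that fit, where 1.57% of all genes were. AARS2 also had the largest rise with A366, at 93.9, 99.3 and 101 CPM (0.11, SE 0.07), where the groups overlapped.

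The largest fall with UNC0642 was set by that same library. VARS2, for mitochondrial valine, was at 40.6, 35.4 and 39.2 CPM with DMSO and at 21.9, 34.1 and 34.8 with UNC0642 (log2 fold change -0.34, SE 0.15, adjusted p = 0.507), and without replicate 1 the value was -0.16. FARS2, for mitochondrial phenylalanine, was at 29.04 CPM in replicate 1 and at 15.5 and 14.6 in the other UNC0642 libraries, against 14.1, 17.7 and 16.8 with DMSO, and its log2 fold change went from 0.26 to -0.11 without replicate 1. MARS2, for mitochondrial methionine, had the largest fall with A366, from 27.9, 28.9 and 26.5 CPM to 24.6, 26.1 and 22.3 (log2 fold change -0.19, SE 0.09, adjusted p = 1.000).

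UNC0642 in MP41 lowered WARS and no other member past the threshold. WARS was at 346, 323 and 347 CPM with DMSO and at 267, 234 and 265 with UNC0642, with no overlap (log2 fold change -0.41, SE 0.06, adjusted p = 0.0235). This was 1 of 36 members, where 0.241% of the 14956 genes tested were called. The call was lost when any 1 of the 6 libraries compared was left out, or A366 replicate 1, with values from -0.45 to -0.35 and adjusted p from 0.0703 to 0.163. DESeq2 and limma voom also called WARS lower, at -0.41 and -0.40, with 1.2% and 1.03% of all genes called. When each library was corrected for GC content and transcript length, the value was -0.41 (adjusted p = 0.00145), and 1.05% of all genes were then called. Groups did not overlap for 10 of 36 members (27.8%), against 18.8% of all genes. Of these, AARS, CARS, GARS, IARS, MARS, WARS, YARS and YARS2 were lower and NARS2 and VARS2 higher. The largest rise was that of VARS2, from 93.4, 98.3 and 97.3 CPM to 107, 109 and 101 (log2 fold change 0.13, SE 0.07, adjusted p = 0.634).

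**Figure D2:**
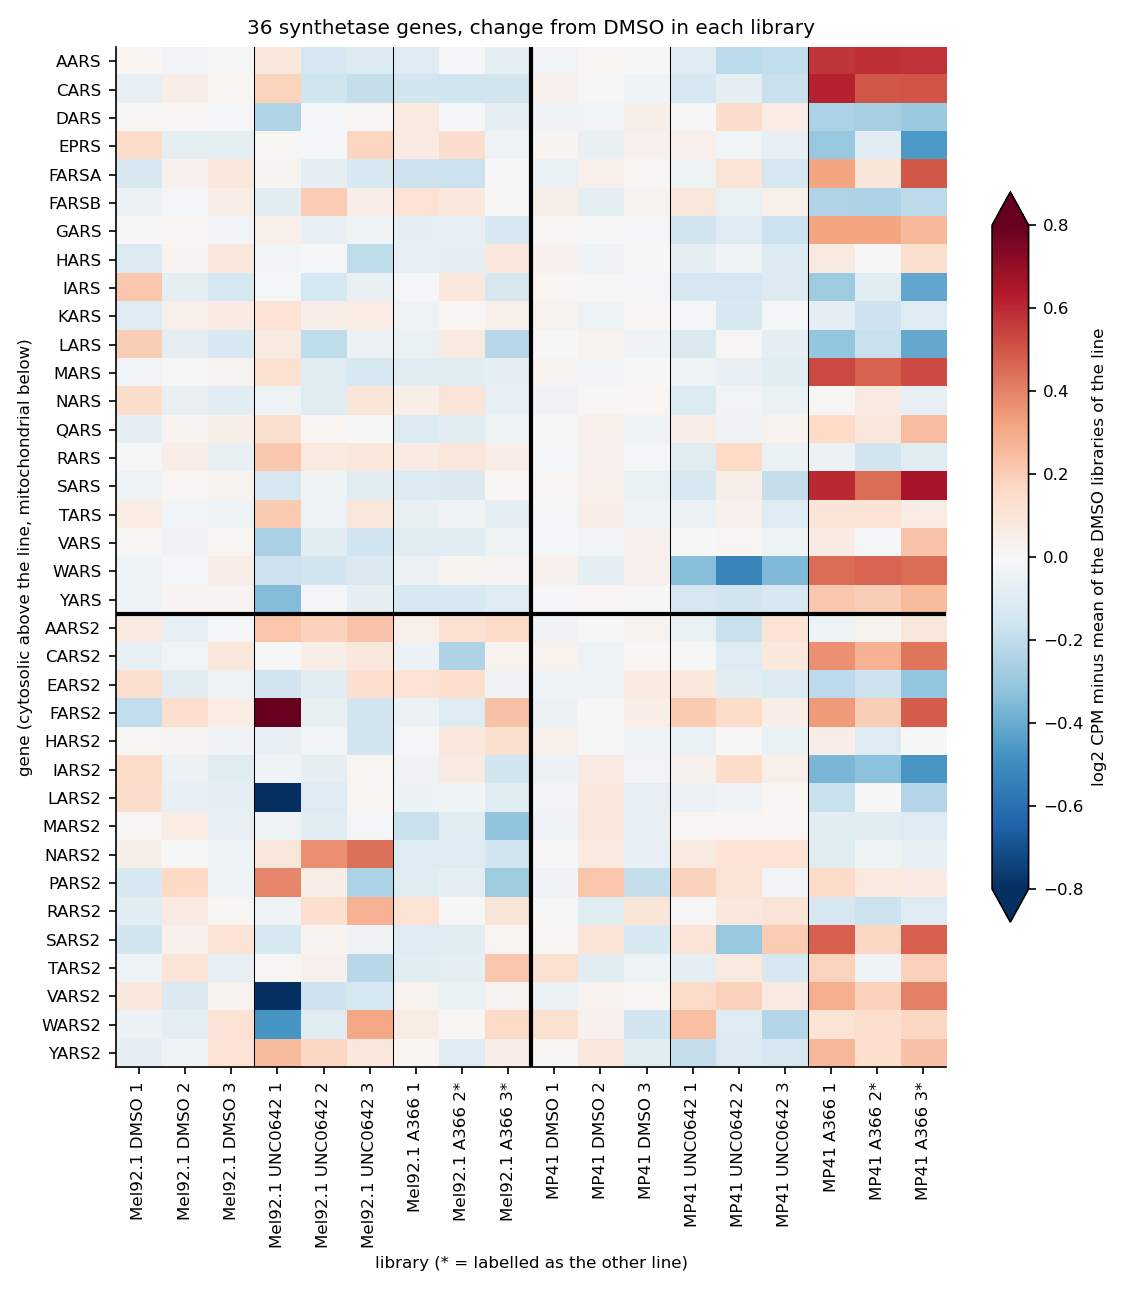
Change of each of the 36 synthetase genes (rows, cytosolic above the thick line) in each of the 18 libraries (columns), as log2 CPM minus the mean of the DMSO libraries of the same line, with the color scale ending at 0.8 in both directions and an asterisk on the 4 libraries labelled as the other line. The 3 MP41 A366 libraries are dark for AARS, CARS, MARS, SARS and WARS, and Mel92.1 UNC0642 replicate 1 stands apart for FARS2, LARS2 and VARS2.

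A366 in MP41 moved many members, among very many genes. In these cells 19 of 36 members (52.8%) passed the threshold, near the 46% of all genes that did, so the total by itself is no result about synthetases. Among cytosolic members 8 were higher (AARS, CARS, FARSA, GARS, MARS, SARS, WARS and YARS) and 5 lower (DARS, EPRS, FARSB, IARS and LARS). Among mitochondrial members 4 were higher (CARS2, FARS2, SARS2 and VARS2) and 2 lower (EARS2 and IARS2). Over all genes 22.5% were higher and 23.5% lower. Groups did not overlap for 26 of 36 members (72.2%), against 58% of all genes. As in all bulk RNA, a change in the cells present and a change in RNA per cell cannot be told apart.

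These changes ran with the GC content of the transcripts. Relative to the mean of the other DMSO libraries of the line, log2 CPM over all genes rose by 0.15 to 0.36 per 10% of GC content in the 3 MP41 A366 libraries, against -0.01 to 0.01 in MP41 DMSO libraries and 0.01 to 0.04 with UNC0642. In Mel92.1 the slopes were -0.15 to 0.12 with DMSO, -0.11 to 0.03 with UNC0642 and -0.10 to 0.03 with A366. A slope of the size of the lowest MP41 A366 one was thus also reached, downward, in a Mel92.1 library without inhibitor. The 12 members called higher had a median GC content of 54.5%, and the 7 called lower 43.2%. Across the 36 members, which share the same libraries, the log2 fold change and GC content had a Pearson r of 0.63. A fit corrected in each library for GC content and transcript length (an offset per gene), where r was 0.15, is therefore given beside the fit without it. Whether this slope came from the cells or from library preparation was not tested. Melanocyte markers also moved in this comparison, 4 higher and 3 lower of 8, as did markers of other cell types, 1 higher and 1 lower of the 5 tested of 13, and ribosomal RNA genes, 2 higher of 4 tested. Over all genes 22.5% were higher and 23.5% lower. The part of these markers and ribosomal RNA genes in the changes was not tested.

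**Figure D3:**
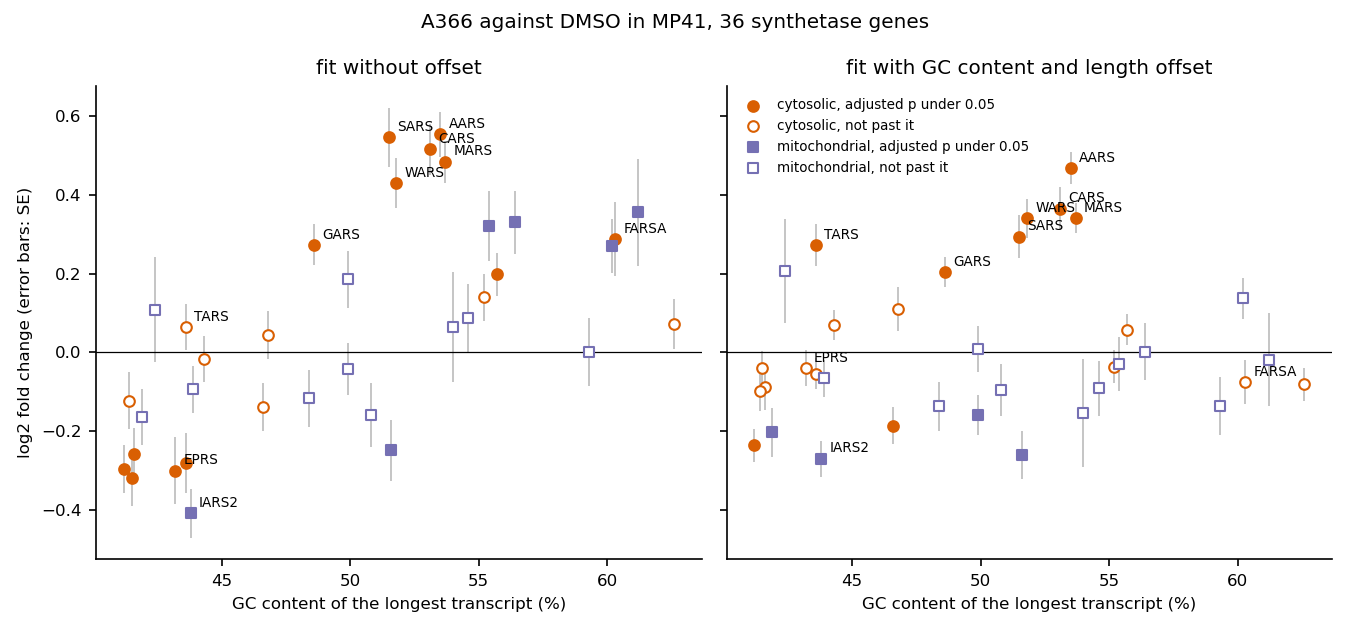
Log2 fold change of A366 against DMSO in MP41 (y axis, bars are SE) against GC content of the longest transcript in percent (x axis) for the 36 synthetase genes, in the fit without an offset (left) and with the GC and length offset (right), filled where the adjusted p was under 0.05. AARS, CARS, GARS, MARS, SARS and WARS are filled above 0 in both panels. TARS is filled above 0 only on the right, FARSA above 0 only on the left, and EPRS below 0 only on the left.

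A group of 6 cytosolic genes was higher in both fits. In the GENCODE annotation of GRCh38 they lie at chr16:70252295-70289543 (AARS, minus strand), chr11:3000922-3057613 (CARS, minus), chr7:30594681-30634033 (GARS, plus), chr12:57475445-57517569 (MARS, plus), chr1:109213918-109238169 (SARS, plus) and chr14:100333788-100376805 (WARS, minus). AARS, for alanine, had the largest rise. Its CPM was 134, 137 and 137 with DMSO and 203, 204 and 203 with A366 (log2 fold change 0.55, SE 0.06, adjusted p = 0.000113), and the value with the offset was 0.47. SARS, for serine, went from 141, 144 and 135 CPM to 212, 191 and 221 (0.55, SE 0.08, adjusted p = 0.000453, with the offset 0.29). CARS, for cysteine, went from 41.7, 40.5 and 39.8 CPM to 62.3, 57.4 and 57.7 (0.52, SE 0.07, adjusted p = 0.000315, with the offset 0.37).

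MARS, for methionine and the only complex member among the 6, rose from 186, 181 and 183 CPM to 264, 255 and 264 (log2 fold change 0.48, SE 0.05, adjusted p = 0.000168, with the offset 0.34). Some 12.4% of its exon bases overlap ARHGAP9 and DDIT3 on the opposite strand, and DDIT3 itself was at 1.30 in this comparison. The library kit keeps strand, but whether the counting used it is not given in the sources used here. WARS rose from its 346, 323 and 347 CPM to 462, 468 and 462 (0.43, SE 0.06, adjusted p = 0.000576, with the offset 0.34), the opposite of its change with UNC0642. Of WARS exon bases, 10.6% overlap AL157871.4 and WDR25 on the opposite strand, so the unknown strand setting bears on WARS too. GARS, for glycine and without a separate mitochondrial gene in this set, rose from 299 ± 1.86 CPM to 367 ± 8.80 (SD, n = 3), a log2 fold change of 0.27 (SE 0.05, adjusted p = 0.00175, with the offset 0.20). For none of these 6 genes did the groups overlap.

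**Figure D4:**
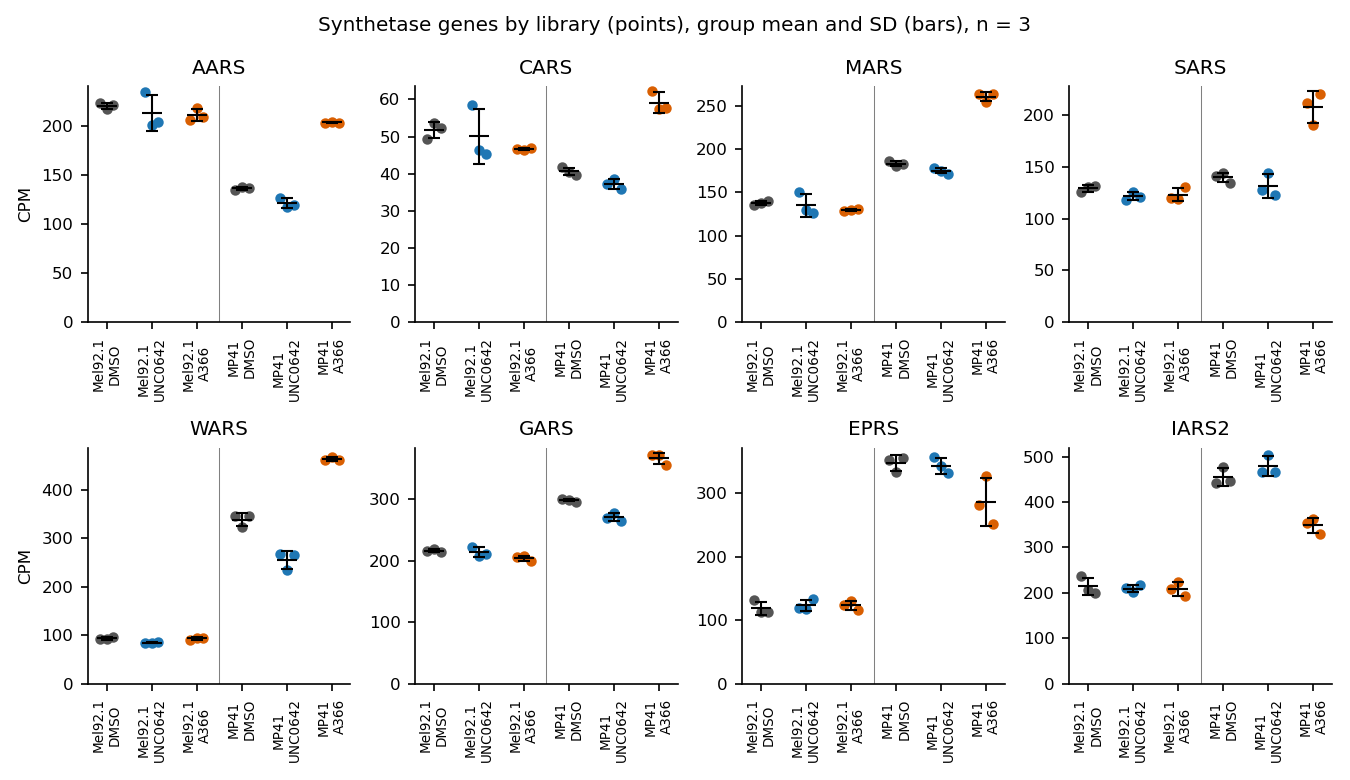
CPM of 8 synthetase genes in each library (points, by group on the x axis), with group means and SD bars (n = 3). In MP41 the A366 libraries lie above DMSO and UNC0642 for AARS, CARS, MARS, SARS, WARS and GARS and below them for EPRS and IARS2, and in Mel92.1 the groups lie close together.

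Apart from DARS, which was called lower in both fits, the remaining cytosolic calls depended on the offset. With it, 7 cytosolic members were higher, the 6 above and TARS, for threonine (log2 fold change 0.27, against 0.06 without it), and 2 were lower, DARS (-0.24, for aspartate) and KARS (-0.19, for lysine). Over all genes 32.9% were called in that fit, 15.4% higher and 17.5% lower. EPRS was at 352, 333 and 356 CPM with DMSO and at 281, 326 and 252 with A366, where the A366 libraries ranged widely (-0.30, SE 0.09, adjusted p = 0.0128). With the offset EPRS was at -0.04 (adjusted p = 0.538), and the call was also lost without DMSO replicate 3 or A366 replicate 1 (adjusted p = 0.0502 and 0.0543). FARSB, which with FARSA forms the cytosolic phenylalanyl enzyme, fell from 110, 101 and 108 CPM to 89.98, 89.3 and 91.8 (-0.26, SE 0.06), while FARSA went from 120, 128 and 125 CPM to 155, 133 and 176 (0.29, SE 0.09). With the offset these subunits were at -0.09 and -0.08, and neither was called. IARS, LARS and YARS also lost their calls with the offset.

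Counted by assembly, 1 of the 8 synthetases of the multisynthetase complex was higher with A366 in MP41 and 4 lower, with a median log2 fold change of -0.21, and of the 12 acting free of it 7 were higher and 1 lower, with a median of 0.24, beside 0.02 over all genes. With the offset these counts were 1 higher and 2 lower of 8 (median -0.05) and 6 higher and 0 lower of 12 (median 0.16), beside -0.01 over all genes. Of all genes 22.5% were called higher and 23.5% lower, and with the offset 15.4% and 17.5%.

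No mitochondrial synthetase was called higher with the offset. IARS2 had the largest fall of all 36 members, from 441, 477 and 447 CPM with DMSO to 353, 362 and 330 with A366, with no overlap (log2 fold change -0.41, SE 0.06, adjusted p = 0.000614, with the offset -0.27). EARS2, for mitochondrial glutamate, was also lower in both fits (-0.25 and -0.26), and RARS2 (-0.20) and HARS2 (-0.16) were lower only with the offset. CARS2, FARS2, SARS2 and VARS2, called higher at 0.27 to 0.36 without the offset, were at -0.03 to 0.14 with it and were not called. The call of EARS2 was lost without DMSO replicate 3, A366 replicate 1 or A366 replicate 3 (adjusted p from 0.0654 to 0.0880), and that of SARS2 without any of 6 libraries. The call of FARS2 was lost without A366 replicate 3 (adjusted p = 0.0644).

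Placement decided part of this. Without the 4 exchanged libraries, 8 cytosolic members were higher and 5 lower, and 2 mitochondrial members were higher and 1 lower, and the 6 genes named above kept their calls, with log2 fold changes of 0.28 to 0.57, where 35.7% of all genes were called. That fit takes its spread from DMSO and UNC0642 and assumes that the single A366 library varies like them. With libraries as labelled, the MP41 A366 group holds 2 libraries that express Mel92.1 genes. In that fit 32.8% of all genes were called. AARS (0.64) and CARS (0.36) were then still higher, SARS was at 0.14 (adjusted p = 0.574), and GARS (-0.20), MARS (-0.07) and WARS (-0.65) had the opposite sign without being called.

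Motif and call were set side by side as a description. Of the 7 cytosolic genes with the core TGATGNAA in the promoter window, AARS, CARS, GARS and MARS were called higher with A366 in MP41, IARS lower, and NARS and TARS not at all. With the offset, TARS joined those higher and IARS was not called. Of the 9 cytosolic genes with an entry and no match, FARSA, SARS and WARS were higher and 2 lower, and with the offset SARS and WARS were higher and KARS lower. YARS2, the mitochondrial gene with the core, was at 0.19 (adjusted p = 0.0547) and with the offset at 0.01. Over all genes 22.5% were called higher and 23.5% lower, and with the offset 15.4% and 17.5%.

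A366 and UNC0642 were compared directly in MP41 at the same dose and time. Here 18 of 36 members were called, where 43.1% of all genes were. WARS had the largest difference, 0.84 (SE 0.06, adjusted p = 8.05e-06), followed by AARS (0.73, SE 0.06), CARS (0.65, SE 0.07), SARS (0.64, SE 0.08), MARS (0.55, SE 0.05) and GARS (0.42, SE 0.05), all higher with A366. Of the cytosolic members 8 were higher with A366 and 4 lower, and of the mitochondrial members 2 were higher and 4 lower, with IARS2 at -0.48 (SE 0.06).

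The line difference in the response to A366 was tested as an interaction in 1 fit of the 18 libraries. For 10 of 36 members (27.8%) the change in Mel92.1 differed from that in MP41, where 13.8% of all genes did. The difference, Mel92.1 minus MP41, was negative for AARS (-0.64, SE 0.08, adjusted p = 0.000295), CARS (-0.69, SE 0.12), SARS (-0.64, SE 0.10), MARS (-0.60, SE 0.08), WARS (-0.46, SE 0.08) and GARS (-0.38, SE 0.07). FARSA, YARS and CARS2 were also lower, at -0.44 to -0.34, and IARS2 was higher at 0.35. With the GC and length offset, 6 members were called, the same 6 cytosolic genes, where 4.84% of all genes were. Without the exchanged libraries AARS, MARS and SARS were called, where 1.24% of all genes were, and with libraries as labelled 24 members and 49.4% of all genes were. Leaving out DMSO replicate 1 of Mel92.1 raised the count from 10 to 16. Leaving out DMSO replicate 2 or 3 or A366 replicate 2 of Mel92.1, or A366 replicate 1 or 3 of MP41, lowered it to 6. The calls over all genes in these fits are not given here, so a general change in calls cannot be told apart from one in the members. In the response to UNC0642 the lines differed for 0 of 36 members by edgeR, where 0.601% of all genes differed. By edgeR 5 members had an unadjusted p under 0.05. DESeq2 also called 0 members, where it called 315 of 15799 genes. With the offset WARS was called (0.31, adjusted p = 0.0339), where 1.16% of all genes were, falling less in Mel92.1.

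Cognate pairs were compared within each comparison, as the change of the cytosolic gene minus that of its mitochondrial counterpart over 17 pairs. With A366 in MP41, 10 pairs had the larger value on the cytosolic side, from -0.58 (FARSB and FARS2) to 0.60 (MARS and MARS2) on the log2 scale, and with the offset 14 of 17 did, led by AARS over AARS2 (0.60). AARS2 itself was at 20.3, 21.3 and 22.2 CPM with A366 and 20.5, 20.9 and 21.4 with DMSO, and MARS2 at 20.9, 20.9 and 20.6 against 21.7, 23.6 and 21.2. The cytosolic side was the larger in 3 of 17 pairs with UNC0642 in MP41, 5 with UNC0642 in Mel92.1 and 6 with A366 in Mel92.1. Averaged over both inhibitors, the pair that differed most was FARSA and FARS2 in Mel92.1 (-0.23) and FARSB and FARS2 in MP41 (-0.34). In Mel92.1 that rests on the FARS2 value of UNC0642 replicate 1, and in MP41 the difference with A366 went from -0.58 to -0.06 with the offset.

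The same contrast was taken per library, as the mean log2 CPM of the 20 cytosolic genes minus that of the 16 mitochondrial genes. In MP41 it was 2.52 ± 0.04 with DMSO, 2.43 ± 0.04 with UNC0642 and 2.58 ± 0.03 with A366 (SD, n = 3). The UNC0642 libraries, at 2.40, 2.47 and 2.42, all lay below the DMSO libraries, at 2.52, 2.48 and 2.56. The A366 libraries, at 2.58, 2.61 and 2.56, lay above them by little, since the lowest of them and the highest DMSO library were at 2.558 and 2.555. With the values corrected for GC content and length, the 3 groups were at 2.49 ± 0.03, 2.40 ± 0.04 and 2.64 ± 0.02. In Mel92.1 it was 1.96 ± 0.01 with DMSO, 1.92 ± 0.07 with UNC0642 and 1.94 ± 0.03 with A366, differences within the spread of the libraries.

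Genes of the integrated stress response, the pathway through eIF2α and ATF4, were counted beside the synthetases. Their list was chosen with earlier results of these data known. With A366 in MP41, 17 of 19 tested were higher and 1 lower, with a median log2 fold change of 0.74, beside 22.5% of all genes higher and 23.5% lower. With the offset 15 were higher and 0 lower (median 0.49), beside 15.4% and 17.5% of all genes. ATF4 itself was at 235 ± 4.01 CPM with DMSO and 357 ± 22.7 with A366, a log2 fold change of 0.58 (SE 0.06) that was 0.27 with the offset. ASNS, the asparagine synthetase that ATF4 induces, went from 58.3 ± 3.17 to 135 ± 4.41 CPM (1.19, SE 0.07), and CHAC1, which degrades glutathione, from 15.7 ± 1.16 to 61.1 ± 6.34 CPM (1.94, SE 0.09). In the other comparisons the list was mostly negative. With UNC0642 in MP41, where 0.241% of all genes were called, 0 were higher and 2 lower of 19 (median -0.19), CHAC1 (-1.12, SE 0.10) and ASNS (-0.54, SE 0.07). In Mel92.1, 0 were higher and 4 lower of 20 with UNC0642 (median -0.27), and 0 higher and 3 lower with A366 (median -0.26), with CHAC1 at -1.96 and -1.95, where 0.688% and 0.213% of all genes were called. The lines differed in their A366 response for 16 of the 20, all lower in Mel92.1, where 13.8% of all genes differed.

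**Figure D5:**
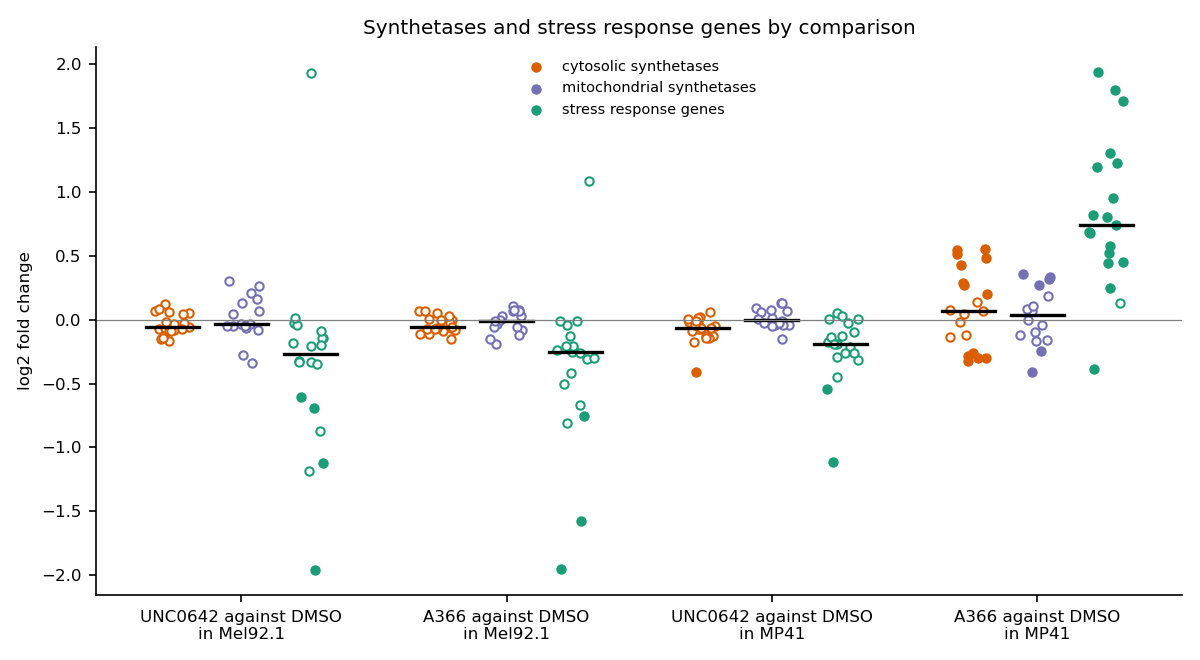
Log2 fold change (y axis) of cytosolic synthetases, mitochondrial synthetases and integrated stress response genes in each inhibitor comparison with DMSO (x axis), with 1 point per gene, filled where the adjusted p was under 0.05, and a bar at the median. The stress response genes have medians of -0.27, -0.26, -0.19 and 0.74 from left to right, and filled cytosolic synthetases above 0 appear only with A366 in MP41.

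Partners of the synthetases were counted from a list of names that was also chosen with earlier results of these data known. Of 10 scaffolds and tRNA partners, 5 were higher and 0 lower with A366 in MP41, among them AIMP2 (0.49, SE 0.10) and AIMP1 (0.21, SE 0.08) of the multisynthetase complex, AARSD1, which clears mischarged tRNA (0.37, SE 0.10), DTD1, the D-aminoacyl-tRNA deacylase (0.35, SE 0.11), and YRDC, which modifies tRNA (0.33, SE 0.09). Over all genes 22.5% were higher and 23.5% lower. With the offset 4 of the 10 were higher, beside 15.4% of all genes. In the other 3 comparisons with DMSO, 0 of these 10 genes were called by edgeR, with 1 at an unadjusted p under 0.05, AIMP1 with UNC0642 in Mel92.1.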

How the data were processed

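RNA-seq of 18 libraries of Mel92.1 and MP41 cells was used. The authors deposited 1 table of expected counts per gene symbol, made with Bowtie2 2.1.0 and RSEM 1.2.15 on hg38 per the labels, and these were rounded to whole numbers. The gene annotation and strand setting are not given in the sources used here. The labels describe oligo-dT selection and the series text ribosomal RNA depletion. Total counts were 23601156 to 62941462 per library, and 0 columns were left unused.

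Genes low in counts were removed (filterByExpr, all 3 groups of a line together), libraries were scaled by TMM factors, and the edgeR 4.0.16 quasi-likelihood test was run in R 4.3.3 on 14528 genes in Mel92.1, 14956 in MP41 and 15799 in both lines, with p-values adjusted by Benjamini-Hochberg and called under 0.05. The biological coefficient of variation was 0.175, 0.109 and 0.143. DESeq2 1.42.0, limma 3.58.1, other scalings, no filter, only the libraries compared, a replicate block, libraries as labelled or left out, and a per-library offset (a spline with 5 degrees of freedom on GC content and on length) were alternatives. GC content and length came from GENCODE for 23899 symbols by name and 710 through a synonym, with 1866 not found. All 36 members had them. Scripts were tested on simulated data.

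The members and gene lists were chosen with earlier results of these data known. Library values are given for members called in the same direction by 2 or more of the 4 comparisons with DMSO (there were none), for the largest rise and fall in each, for EPRS and WARS, and for the cognate pair that differed most in each line. CARS, GARS, MARS and SARS were added after their values were seen. A list of mitochondrial charging partners is not reported here.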

Additional observations from a re-analysis of the deposited data

Results flagged for a closer look

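The response to A366 differed between the lines, by the interaction test in edgeR, for 10 of the 36 synthetases. Over all genes 13.8% differed. The change in Mel92.1 minus the change in MP41, on the log2 scale, was -0.64 for AARS, -0.69 for CARS, -0.42 for FARSA, -0.38 for GARS, -0.60 for MARS, -0.64 for SARS, -0.46 for WARS, -0.34 for YARS and -0.44 for CARS2, and 0.35 for IARS2. Without the 4 A366 libraries that went against their labels, 3 of the 10 were called, AARS (-0.67), MARS (-0.62) and SARS (-0.70).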

How the results depend on the processing

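The count of members called moved as follows, while the count of all genes called also moved between these fits. For the line difference with A366, limma voom called 9276 of 15799 genes, against 2179 by edgeR. For UNC0642 against DMSO in Mel92.1 it was 0, and 2 with DESeq2, 2 with limma voom and 1 (AARS2) with the GC and length offset. For A366 there it was 0, and 9 with limma voom. For A366 against UNC0642 in Mel92.1 it was 0, and 1 (NARS2) with each of DESeq2, limma voom and the offset. Those fits called 213, 214 and 128 of 14528 genes, against 24 by edgeR. For UNC0642 in MP41 it was 1, and 0 as labelled or with the replicate block. For the line difference with UNC0642 it was 0, and 1 with limma voom or the offset, which called 243 and 183 of 15799 genes, against 95 by edgeR. For the line difference with A366 it was 10, and 24 as labelled, 3 without the 4 exchanged libraries, 27 with limma voom and 6 with the offset. Leaving out 1 library at a time gave 0 to 1 for UNC0642 in Mel92.1, for A366 against UNC0642 there and for UNC0642 in MP41, 15 to 22 for A366 in MP41, 12 to 26 for A366 against UNC0642 there, and 6 to 16 for the line difference with A366. How many of all genes those fits called is not given here. The cytosolic minus mitochondrial difference for A366 was -0.02 in Mel92.1 and 0.06 in MP41, 0.41 and -0.37 as labelled, and 0.16 in MP41 with the offset.

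For A366 against DMSO in MP41 the sign turned with the offset for FARSA (-0.076), FARS2 (-0.029) and SARS2 (-0.019), and as labelled for GARS (-0.20), MARS (-0.065), WARS (-0.65), EARS2 (0.40) and VARS2 (-0.58). AARS, CARS, DARS and IARS2 were called in the same direction in all 19 alternatives. Over all genes, UNC0642 in MP41 called 36, and 180 with DESeq2, 154 with limma voom, 116 without the 4 libraries, 9 with the block and 0 as labelled, and the line difference with A366 called 2179, and 9276 with limma voom, 3489 with DESeq2, 7801 as labelled, 764 with the offset and 208 without the 4 libraries. The causes were not tested. Replicate numbers did not pair the samples, since deviations of same-numbered libraries correlated at -0.14 to 0.15 in Mel92.1 and -0.06 to 0.07 in MP41. With the replicate block, A366 in MP41 called 17 members, where 6285 of 14956 genes were called. The line difference with A366 called 9 members with the block, where 1753 of 15799 genes were called. With 3 libraries per group, and 1 A366 library per line without the exchanged ones, small changes could not be detected.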
